A study of Mus musculus with 74 samples.

Results

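The 10 genes described here are 7 Toll-like receptors (Tlr2, Tlr3, Tlr4, Tlr7, Tlr8, Tlr9 and Tlr13), the lipopolysaccharide co-receptors Cd14 and Ly96 (MD-2), and Myd88, the adaptor that most Toll-like receptors signal through. They were chosen by gene symbol from the 49480 gene symbols of the count table. Each library was made by Smart-seq2, which copies whole transcripts from little input, out of 1000 cells sorted in 2 rounds. The mice were C57/BL/6J and carried MC38, a colon carcinoma line of the mouse, under the skin until day 10 of growth. The sorted types were macrophages (CD45+CD11b+F4/80+), dendritic cells (CD45+CD11b+CD11c+MHCII+), CD25+ CD4 T cells (called regulatory), CD25- CD4 T cells (called conventional) and CD8 T cells, the T cells all TCRb+. Each came from tumor and spleen, and from mice of 12 and 3 months. These make 20 groups and 74 libraries. No genotype or drug distinguished the groups, and the labels give the implanted tumor for every library, spleen included. Groups held 4 libraries each, except 3 for tumor dendritic cells at 12 months, spleen dendritic cells at each age and CD25- CD4 T cells of the spleen at 3 months, and 2 for tumor conventional CD4 T cells at 3 months. Replicate 1 of each dendritic cell group was male and the other 70 libraries were female. Titles put 2 spleen dendritic cell libraries at 3 months while their age tag says 12 months, and titles were followed.

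Toll-like receptors recognise conserved microbial or self molecules. Tlr2 and Tlr4 sit at the cell surface, where Tlr2 pairs with Tlr1 or Tlr6 to bind lipopeptides, and Tlr4 with Ly96 binds lipopolysaccharide handed over by Cd14. Tlr3, Tlr7, Tlr8, Tlr9 and Tlr13 act in endosomes on nucleic acids: Tlr3 on double-stranded RNA, Tlr7 on single-stranded RNA, Tlr9 on DNA with unmethylated CpG and Tlr13, present in mice but not in humans, on bacterial ribosomal RNA. Endosomal receptors need the chaperone Unc93b1, and several are cleaved by cathepsins and legumain before they signal. Tlr3 signals through Ticam1, Tlr4 through both Ticam1 and Myd88, and the others through Myd88, to NF-kB and interferon regulatory factors. Macrophages and dendritic cells are the main users of these receptors, in combinations that differ between their subtypes.

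In build GRCm38 (GENCODE M21) 9 of the 10 genes lie at chr3:83836272-83841767 (Tlr2), chr8:45395665-45411080 (Tlr3), chr4:66827584-66930284 (Tlr4), chrX:167304929-167330558 (Tlr7), chrX:167242696-167264329 (Tlr8), chr9:106222598-106226883 (Tlr9), chrX:106143204-106160493 (Tlr13), chr1:16688051-16709611 (Ly96) and chr9:119335934-119341411 (Myd88), and the position of Cd14 is not given here. Libraries held between 1652812 and 9115858 counts, with a median of 4679410. Levels are CPM, the count of a gene scaled by the total count of its library. Macrophage markers (9 of 9 detected) added up to between 17570 and 41650 CPM in tumor macrophages, against 5419 to 8225 CPM in spleen macrophages. Dendritic cell markers added up to between 952 and 2913 CPM in tumor dendritic cells, against 2791 to 3653 CPM in spleen dendritic cells, and to at most 728 CPM in any macrophage library. Other lists moved with tissue. Neutrophil markers (9 of 9 detected in spleen, Camp at 0 in tumor at 3 months) added up to between 171 and 1067 CPM in tumor macrophages, against 5292 to 40380 CPM in spleen macrophages. B cell markers (8 of 8 detected in spleen, Pax5 at 0 in tumor macrophages at 3 months) added up to between 66.5 and 238 CPM in tumor macrophages, against 1852 to 8555 CPM in spleen macrophages. The same list reached 78.8 to 173 CPM in tumor dendritic cells, against 1703 to 7786 CPM in spleen dendritic cells. Markers of plasmacytoid dendritic cells, a subtype known for Tlr7 and Tlr9, added up to between 249 and 334 CPM in tumor dendritic cells, against 793 to 1574 CPM in spleen dendritic cells (6 of 6 detected in both). Monocyte markers (6 of 6 detected in each) lay between 2478 and 4864 CPM in tumor dendritic cells, against 1199 to 2047 CPM in spleen ones, and between 3237 and 6438 CPM in tumor macrophages, against 3637 to 6471 CPM in spleen ones. T cell markers reached at most 349 CPM in any of these libraries. Among tumor dendritic cells, the libraries numbered 2 stood apart, with macrophage markers at 20740 CPM (12 months) and 17220 CPM (3 months), against 3359 to 6861 CPM in the other 5. Spleen dendritic cells held 490 to 825 CPM of macrophage markers. Every tumor dendritic cell library held more CPM of macrophage markers than of dendritic cell markers. Spleen macrophages at 12 months held 10740 to 40380 CPM of neutrophil markers, above their 5419 to 8225 CPM of macrophage markers. At 3 months the medians were 7669 CPM for neutrophil and 6882 CPM for macrophage markers. Levels called spleen macrophage below are those of this sort, and the part of neutrophils in them was not tested beyond leaving out 3 libraries.

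Of the 10 members 6 matched the RefSeq table, and promoters are shown for 4 of them, chosen to cover a surface receptor (Tlr2), 2 endosomal receptors (Tlr3 and Tlr9) and the shared adaptor (Myd88), and not for Tlr8 and Tlr13. Each runs 5′ to 3′ on the gene's strand from 250 bases before to 50 bases after its start, in build GRCm38.p6. Tlr2 is at chr3:83841559-83841858 on the minus strand, Tlr3 at chr8:45410331-45410630 on the minus strand, Tlr9 at chr9:106222348-106222647 on the plus strand and Myd88 at chr9:119339969-119340268 on the minus strand. Capitals mark matches to motifs of factors known in myeloid or B cells or downstream of these receptors. Motifs were searched on both strands and were chosen after these sequences had been read.
Tlr2: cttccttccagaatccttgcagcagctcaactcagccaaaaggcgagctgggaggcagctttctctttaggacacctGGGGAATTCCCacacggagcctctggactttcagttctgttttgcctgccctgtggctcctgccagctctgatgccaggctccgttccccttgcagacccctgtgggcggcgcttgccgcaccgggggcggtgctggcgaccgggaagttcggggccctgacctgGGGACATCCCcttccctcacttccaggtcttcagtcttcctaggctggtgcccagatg
Tlr3: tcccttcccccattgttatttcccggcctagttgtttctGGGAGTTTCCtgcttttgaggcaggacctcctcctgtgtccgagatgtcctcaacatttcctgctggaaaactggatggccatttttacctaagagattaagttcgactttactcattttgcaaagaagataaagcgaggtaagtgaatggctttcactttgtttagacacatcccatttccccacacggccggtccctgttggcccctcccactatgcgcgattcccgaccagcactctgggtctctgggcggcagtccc
Tlr9: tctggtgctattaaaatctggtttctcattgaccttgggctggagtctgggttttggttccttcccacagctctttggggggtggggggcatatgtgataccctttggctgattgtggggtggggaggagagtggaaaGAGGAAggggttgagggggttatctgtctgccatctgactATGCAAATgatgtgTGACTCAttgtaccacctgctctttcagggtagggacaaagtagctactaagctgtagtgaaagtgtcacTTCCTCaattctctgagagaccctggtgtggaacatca
Myd88: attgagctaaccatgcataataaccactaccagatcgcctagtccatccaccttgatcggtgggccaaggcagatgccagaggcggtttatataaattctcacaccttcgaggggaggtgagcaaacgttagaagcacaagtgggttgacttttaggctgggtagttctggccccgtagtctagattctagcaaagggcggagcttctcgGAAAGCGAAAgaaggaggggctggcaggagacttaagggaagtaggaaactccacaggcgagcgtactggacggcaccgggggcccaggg
The capitals in Tlr2 and Tlr3 match the NF-kB consensus, which was found in 8.46% of 32851 promoters of the same length. Tlr2 held it at -173 and -172, overlapping, and at -8 from the start, and Tlr3 at -211. In Tlr9 the capitals are the PU box GAGGAA at -112 and, reversed, at 13, the octamer ATGCAAAT at -72 and the AP-1 motif TGANTCA at -58, found in 28.3%, 1.74% and 7.81% of promoters. Tlr8 and Tlr13 each held 1 PU box. Myd88 held 2 copies of GAAA with any 2 bases between them, the core of the interferon-stimulated response element, at -40, a match found in 3.44% of promoters. No binding was measured, and a match describes letters only.

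Tumor macrophages carried more RNA than spleen macrophages for 6 of the 10 genes and less for 1. Tlr3 rose 10.9-fold, Cd14 5.93-fold, Tlr2 3.23-fold, Tlr4 2.35-fold, Tlr9 2.31-fold and Tlr8 1.62-fold, while Tlr7 fell to 0.687 of the spleen level. Among all 12876 genes tested in macrophages 51.7% were called, 23.9% higher and 27.8% lower, so that 7 called of 10 stands against a background in which most genes differed. The median log2 fold change was 0.95 over the members and -0.06 over all genes. Tumor dendritic cells were higher than spleen dendritic cells in 7 of the 10 genes and lower in 2, with 47.1% of 13981 genes called (24.4% higher, 22.7% lower). Cd14 rose 217-fold, Tlr8 10.5-fold, Tlr4 7.35-fold, Tlr2 6.83-fold, Tlr13 2.19-fold, Myd88 1.98-fold and Tlr3 1.78-fold. Tlr9 fell to 0.526 and Tlr7 to 0.386 of the spleen level. Fold changes come from edgeR's quasi-likelihood test with TMM scaling, averaged over both ages, and can differ from ratios of mean CPM. Calls use an adjusted p under 0.05 by Benjamini-Hochberg over all genes tested. Nothing in the labels says that libraries of a group came from separate animals, so p-values measure only the spread between libraries. In sorted bulk samples, fewer cells of a subtype and less RNA per cell cannot be told apart.

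**Figure D1:**
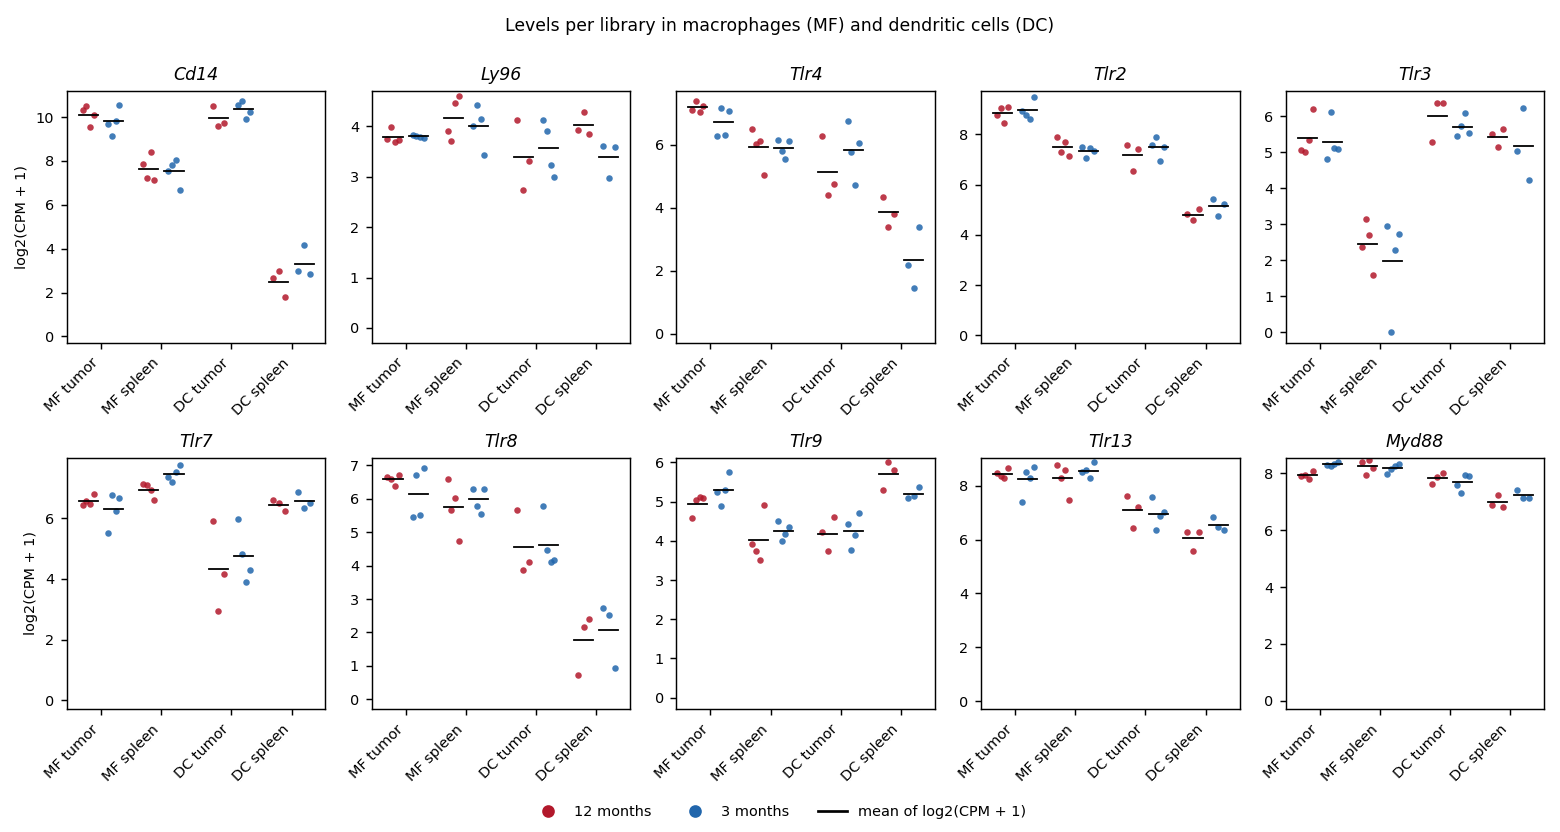
Levels of the 10 genes in every macrophage (MF) and dendritic cell (DC) library, as log2(CPM + 1), with 1 point per library, red for 12 and blue for 3 months, and a bar at the mean of each group. Cd14 and Tlr2 stand clear of spleen in both tumor populations, Tlr3 is low in spleen macrophages, and Tlr9 moves in opposite directions between the cell types.

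Of the lipopolysaccharide receptor genes, Cd14, which carries lipopolysaccharide to the receptor, set tumor and spleen furthest apart in dendritic cells. Tumor dendritic cells had 855, 1448 and 761 CPM of Cd14 at 12 months (replicates 1 to 3) and 1189, 1511, 1700 and 958 CPM at 3 months (replicates 1 to 4). Spleen dendritic cells had 2.47, 5.31 and 6.83 CPM at 12 months and 6.88, 16.8 and 6.18 CPM at 3 months (replicates 1, 3 and 4 each). The lowest tumor library was far above the highest spleen library, and the log2 fold change of Cd14 was 7.76 ± 0.33 (SE; adjusted p = 3.85e-09, edgeR). It was 7.60 without the tumor libraries numbered 2, which were rich in macrophage markers. Cd14 is itself known from monocytes and macrophages, whose markers were higher in tumor than in spleen dendritic cells, and their part in the result was not tested. Cd14 in macrophages ran from 569 CPM (median 996, highest 1495) in 8 tumor libraries and from 102 CPM (median 206, highest 336) in 8 spleen libraries. These ranges did not overlap either, with a log2 fold change of 2.57 ± 0.27 (adjusted p = 6.94e-07, edgeR), and 2.77 without the 3 spleen macrophage libraries whose neutrophil markers summed to over 15000 CPM.

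Tlr4, the signalling receptor for lipopolysaccharide, rose in both types to a smaller degree. Its lowest, median and highest levels were 20.2, 53.2 and 108 CPM in tumor dendritic cells, against 1.71, 9.57 and 19.3 CPM in spleen dendritic cells. Every tumor library was above every spleen library, although the lowest tumor value lay close to the highest spleen value. Tlr4 had a log2 fold change of 2.88 ± 0.49 (adjusted p = 0.000724, edgeR). It was 2.24 without the tumor libraries numbered 2, which held the highest values (76.0 and 108 CPM), and 1.83 with an adjusted p of 0.0610 when only the 12-month groups were contrasted. In macrophages Tlr4 ran from 77.2 to 169 CPM in tumor (median 136) and from 31.9 to 90.0 CPM in spleen (median 66.3). The ranges overlapped slightly, and the log2 fold change was 1.23 ± 0.19 (adjusted p = 2.20e-05, edgeR). Ly96, the small protein that forms the lipopolysaccharide pocket of Tlr4, did not pass the test in either type. Its level was 12.9 ± 0.9 CPM in tumor macrophages and 16.6 ± 4.7 CPM in spleen macrophages (SD, n = 8 each). In tumor dendritic cells it ran from 5.66 to 16.6 CPM (median 8.91), against 6.84 to 18.6 CPM in spleen dendritic cells (median 12.3). The log2 fold changes of Ly96 were -0.14 with a 95% interval of -0.52 to 0.25 in macrophages and 0.14 with an interval of -0.44 to 0.72 in dendritic cells.

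Tlr2, the lipopeptide receptor, rose in both types with no overlap between tissues. Tumor macrophages had 348, 465 and 710 CPM as lowest, median and highest, against 134, 169 and 239 CPM in spleen macrophages. Tumor dendritic cells had 92.1, 181 and 237 CPM, against 22.9, 29.4 and 42.2 CPM in spleen dendritic cells. The log2 fold change was 1.69 ± 0.16 in macrophages (adjusted p = 2.89e-08, edgeR) and 2.77 ± 0.20 in dendritic cells (adjusted p = 9.72e-08, edgeR). Neither call of Tlr2 was lost under any of the 23 alternatives run for macrophages or the 22 run for dendritic cells.

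Among the endosomal receptors, Tlr3, the sensor of double-stranded RNA, was low in spleen macrophages. Tumor macrophages had 32.5, 30.9, 39.3 and 72.2 CPM at 12 months and 26.9, 67.7, 33.6 and 32.7 CPM at 3 months (replicates 1 to 4). Spleen macrophages had 4.13, 7.87, 5.47 and 2.02 CPM at 12 months and 6.68, 0, 3.90 and 5.55 CPM at 3 months. All 8 tumor libraries exceeded all 8 spleen libraries, and the log2 fold change of 3.44 ± 0.41 (adjusted p = 2.12e-06, edgeR) was the largest of the 10 in macrophages. Tlr3 in dendritic cells was already high in spleen. It ran from 38.0 to 81.8 CPM in tumor (median 52.3) and from 17.8 to 73.9 CPM in spleen (median 39.0). The ranges overlapped, and the log2 fold change of 0.83 ± 0.31 (adjusted p = 0.0465, edgeR) is a marginal call, lost when any of 11 of the 13 libraries was left out (adjusted p from 0.0578 to 0.134).

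Tlr9, the CpG DNA receptor, moved in opposite directions in the 2 cell types. Tumor macrophages had 22.9, 33.3 and 53.0 CPM as lowest, median and highest, against 10.3, 16.0 and 29.4 CPM in spleen macrophages. Tumor dendritic cells had 12.3, 17.7 and 25.2 CPM, against 33.4, 39.4 and 63.1 CPM in spleen dendritic cells. The macrophage ranges overlapped, while every tumor dendritic cell library lay below every spleen one. Tlr9 had a log2 fold change of 1.21 ± 0.20 in macrophages (adjusted p = 4.23e-05, edgeR) and -0.93 ± 0.19 in dendritic cells (adjusted p = 0.000991, edgeR). In dendritic cells it was -0.60 with an adjusted p of 0.0875 when only the 3-month groups were contrasted. B cells and plasmacytoid dendritic cells are both known for Tlr9, and the markers of both were higher in spleen than in tumor dendritic cells. Siglech, a plasmacytoid marker, ran from 0 to 34.6 CPM in tumor and from 136 to 617 CPM in spleen dendritic cells. The part of these cells in the Tlr9 and Tlr7 results was not tested.

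Tlr7, the single-stranded RNA receptor, fell in both types. Its lowest, median and highest levels were 44.96, 90.4 and 109 CPM in tumor macrophages, against 94.9, 142 and 215 CPM in spleen macrophages. The ranges overlapped in part, and the log2 fold change was -0.54 ± 0.15 (adjusted p = 0.00459, edgeR), or -0.23 with an adjusted p of 0.428 when only the 12-month groups were contrasted. Among tumor dendritic cells Tlr7 was at 16.9, 58.6 and 6.65 CPM at 12 months (replicates 1 to 3) and 18.4, 61.9, 27.0 and 14.01 CPM at 3 months (replicates 1 to 4). Spleen dendritic cells had 74.3, 96.1 and 88.8 CPM at 12 months and 116, 80.0 and 89.6 CPM at 3 months (replicates 1, 3 and 4). The ranges did not overlap, and the 2 tumor libraries nearest to spleen were those numbered 2. The log2 fold change of -1.37 ± 0.49 (adjusted p = 0.0414, edgeR) was lost when any of 10 of the 13 libraries was left out (adjusted p from 0.0558 to 0.117). Without both libraries numbered 2 it was -2.28 ± 0.23 (adjusted p = 8.34e-07), and without the 2 spleen libraries of conflicting age labels -1.77 (adjusted p = 0.108).

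Tlr8, the gene next to Tlr7 on the X chromosome, did not follow it. Tumor dendritic cells had 13.5, 16.8 and 53.9 CPM of Tlr8 as lowest, median and highest, against 0.644, 3.92 and 5.60 CPM in spleen dendritic cells. There was no overlap, and the log2 fold change was 3.39 ± 0.62 (adjusted p = 0.000964, edgeR), or 2.70 without the tumor libraries numbered 2, at 49.9 and 53.9 CPM. In macrophages Tlr8 ran from 42.5 to 120 CPM in tumor (median 97.5) and from 25.6 to 94.5 CPM in spleen (median 59.0). These ranges overlapped widely. The log2 fold change of 0.70 ± 0.26 (adjusted p = 0.0304, edgeR) lost its call without spleen replicate 2 at 12 months, spleen replicate 2 or 3 at 3 months, or tumor replicate 2 or 4 at 3 months (adjusted p from 0.0505 to 0.0594), and without the 3 libraries rich in neutrophil markers (0.69, adjusted p = 0.118).

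Tlr13, the receptor for bacterial ribosomal RNA, and Myd88, the shared adaptor, rose in tumor dendritic cells and did not pass the test in macrophages. Tlr13 in dendritic cells ran from 81.9 to 195 CPM in tumor (median 129) and from 46.5 to 112 CPM in spleen (median 79.5), with some overlap. Its log2 fold change was 1.13 ± 0.23 (adjusted p = 0.00173, edgeR), or 0.77 without the tumor libraries numbered 2, and 0.84 with an adjusted p of 0.0657 when only the 3-month groups were contrasted. Without the 2 spleen libraries of conflicting age labels it was 1.04 (adjusted p = 0.0589). Macrophages had 333 ± 77 CPM of Tlr13 in tumor and 353 ± 90 CPM in spleen (SD, n = 8 each). It had a log2 fold change of 0.12 there with a 95% interval of -0.24 to 0.48. Myd88 ran from 158 to 254 CPM in tumor dendritic cells (median 231) and from 113 to 171 CPM in spleen ones (median 140), with some overlap and a log2 fold change of 0.99 ± 0.13 (adjusted p = 1.62e-05, edgeR). In macrophages Myd88 was 281 ± 42 CPM in tumor and 299 ± 38 CPM in spleen (SD, n = 8 each). Its log2 fold change of 0.11 ± 0.10 did not pass. It was -0.17 (adjusted p = 0.367) for the 12-month groups and 0.40 (adjusted p = 0.0325) for the 3-month groups, and the test of the difference between ages did not pass (-0.57, unadjusted p = 0.00997, adjusted p = 0.945, edgeR). Tlr7, Tlr8 and Tlr13 lie on the X chromosome. In spleen dendritic cells the male library was the lowest of 3 for Tlr7 at 12 months (74.3 CPM) and the highest of 3 at 3 months (116 CPM), and sex was a term of the dendritic cell fits.

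**Figure D2:**
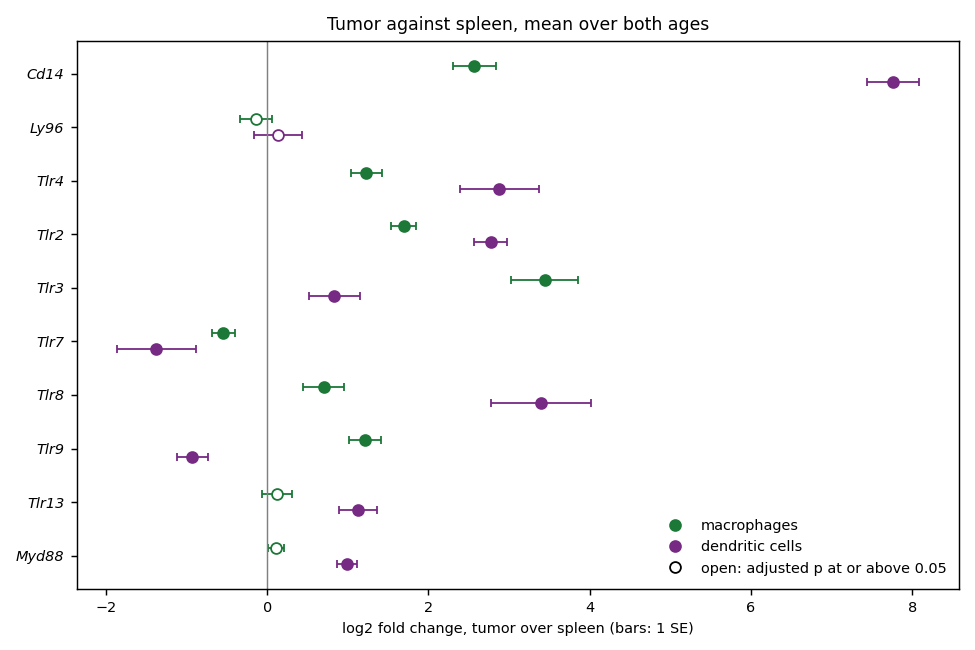
Log2 fold change of tumor over spleen for each of the 10 genes (mean over both ages, bars 1 SE) in macrophages (green) and dendritic cells (purple), with open circles where the adjusted p was 0.05 or more. Cd14 in dendritic cells, at 7.76, lies far to the right of the other genes, and Tlr9 has opposite signs in the cell types.

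Macrophages exceeded dendritic cells in most of these genes, and for 6 of the 10 the gap was smaller in tumor than in spleen. In tumor, 7 of the 10 genes were higher in macrophages and 0 lower, among 12861 genes of which 49.3% were called (22.9% higher, 26.4% lower). In spleen, 7 were higher and 2 lower in macrophages, among 14409 genes of which 52.4% were called (27.1% higher, 25.2% lower). The exceptions were the nucleic acid receptors Tlr3 and Tlr9, which were lower in spleen macrophages than in spleen dendritic cells. A test of whether the gap differed between tissues called 8 of the 10 genes, 2 higher and 6 lower, against 23.3% of 15258 genes (7.88% higher, 15.4% lower).

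Cd14 showed the largest change in that gap. In tumor the levels were 1041 ± 342 CPM in macrophages (SD, n = 8) and 1203 ± 360 CPM in dendritic cells (SD, n = 7), with a log2 fold change of -0.32 and a 95% interval of -0.81 to 0.17 (adjusted p = 0.306). Spleen macrophages had 203 ± 75 CPM (SD, n = 8) and spleen dendritic cells 7.40 ± 4.86 CPM (SD, n = 6), a log2 fold change of 4.71 ± 0.40 (adjusted p = 2.43e-07, edgeR). The 2 populations that Cd14 separated in spleen thus overlapped in tumor, and the difference between the gaps was -5.18 ± 0.42 (adjusted p = 2.20e-09, edgeR). The gap was also smaller in tumor for Tlr8 (log2 fold change 1.38 in tumor and 4.84 in spleen), Tlr4 (1.14 in tumor and 2.78 in spleen), Tlr2 (1.51 in tumor and 2.70 in spleen), Tlr13 (1.22 in tumor and 2.35 in spleen) and Myd88 (0.37 in tumor and 1.19 in spleen). Fitted over both tissues together, which need not equal the difference of the separate fits, the change of the gap was -2.68 for Tlr8, -1.63 for Tlr4, -1.07 for Tlr2, -1.003 for Tlr13 and -0.87 for Myd88. Adjusted p-values of these differences between gaps were 0.00285 for Tlr8, 0.0139 for Tlr4, 0.00176 for Tlr2, 0.0193 for Tlr13 and 0.000115 for Myd88 (edgeR). Without the tumor dendritic cell libraries numbered 2, the difference lost its call for Tlr4 (-1.001, adjusted p = 0.0809) and Tlr13 (-0.66, adjusted p = 0.0856). Leaving out the library numbered 2 at 12 months alone was enough to take Tlr13 to an adjusted p of 0.0518, and Tlr8 (-2.16, adjusted p = 0.0585) and Tlr13 (-0.89, adjusted p = 0.149) missed the threshold without the 2 spleen dendritic cell libraries of conflicting age labels.

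Tlr3 and Tlr9 changed the other way. In tumor Tlr3 was at 42.0 ± 17.7 CPM in macrophages (SD, n = 8) and 58.3 ± 18.4 CPM in dendritic cells (SD, n = 7). It was at 4.45 ± 2.54 CPM in spleen macrophages (SD, n = 8), against 41.7 ± 19.1 CPM in spleen dendritic cells (SD, n = 6), with no overlap and a log2 fold change of -3.19 ± 0.53 (adjusted p = 0.000159, edgeR). The tumor log2 fold change of Tlr3 was -0.54 ± 0.26 (adjusted p = 0.0947, edgeR), and it passed without tumor macrophage replicate 4 at 12 months (-0.69, adjusted p = 0.0233), without replicate 2 at 3 months (-0.70, adjusted p = 0.0244) or without tumor dendritic cell replicate 2 at 12 months (-0.77, adjusted p = 0.0210). Tlr9 was at 34.8 ± 8.8 CPM in tumor macrophages (SD, n = 8), against 18.3 ± 5.0 CPM in tumor dendritic cells (SD, n = 7), and at 17.5 ± 6.1 CPM in spleen macrophages (SD, n = 8), against 44.1 ± 12.2 CPM in spleen dendritic cells (SD, n = 6). The order of the cell types was thus reversed between tissues, with log2 fold changes of 1.05 ± 0.20 in tumor and -1.26 ± 0.24 in spleen and a difference of 2.14 ± 0.28 (adjusted p = 1.48e-06, edgeR). Without the 2 libraries of conflicting age labels the spleen value of Tlr9 was -1.12 (adjusted p = 0.0840). For Tlr3 the difference between the gaps was 2.61 ± 0.54 (adjusted p = 0.000906, edgeR).

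Tlr7 was higher in macrophages than in dendritic cells in both tissues. Macrophages had 87.8 ± 20.9 CPM in tumor (SD, n = 8), against 29.1 ± 22.2 CPM in tumor dendritic cells (SD, n = 7), and 149 ± 37 CPM in spleen (SD, n = 8), against 90.8 ± 14.5 CPM in spleen dendritic cells (SD, n = 6). The log2 fold change was 1.29 ± 0.44 in tumor (adjusted p = 0.0288, edgeR) and 0.79 ± 0.16 in spleen (adjusted p = 0.000494, edgeR), where it was 0.40 (adjusted p = 0.341) without the libraries of conflicting age labels. The gap in tumor was 2.66 without the dendritic cell libraries numbered 2, and the difference between tissues then passed the test (1.74, adjusted p = 1.89e-05, against 0.84 and 0.194 with them). Leaving out only the library numbered 2 at 12 months (1.39, adjusted p = 0.00874) or at 3 months (1.11, adjusted p = 0.0461) also gave a call. The tumor gaps of Tlr4 and Tlr8 were likewise 2.14 and 2.35 without both. The tumor calls of Tlr7 (without dendritic cell replicate 3 at 3 months, 1.25, adjusted p = 0.0547), Tlr4 (without dendritic cell replicate 3 at 12 months, 0.94, adjusted p = 0.0549) and Myd88 (without dendritic cell replicate 2 at 12 months, 0.32, adjusted p = 0.0617) each depended on 1 library. Ly96 did not differ detectably between the cell types in tumor (0.00, 95% interval -0.51 to 0.51) or spleen (0.50, 95% interval -0.07 to 1.07).

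**Figure D3:**
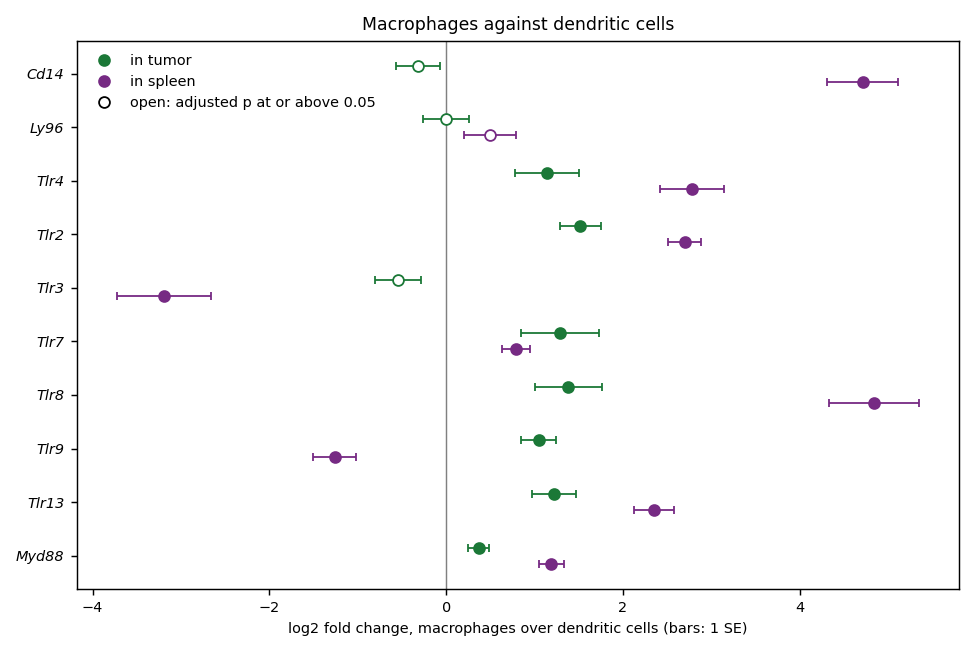
Log2 fold change of macrophages over dendritic cells for each gene in tumor (green) and in spleen (purple), mean over both ages with bars of 1 SE and open circles where the adjusted p was 0.05 or more. For Cd14 the tumor value is -0.32 and the spleen value 4.71, and Tlr9 lies on opposite sides of 0.

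T cells carried little RNA of these receptors, with Myd88 as the exception. Over 45 T cell libraries Myd88 ran from 70.8 to 169 CPM with a median of 97.0 CPM. Tlr7 came next in CPM, from 0 to 56.0 CPM with a median of 12.8 CPM. Medians were 4.80 CPM for Tlr2, 3.62 CPM for Ly96, 1.92 CPM for Tlr4 and 0.632 CPM for Tlr3. Cd14, Tlr8, Tlr9 and Tlr13 had a median of 0, with no count in 23, 31, 34 and 28 of the 45 libraries. Tlr9 had no count in any of 8 tumor CD8 T cell libraries, which allows up to 0.0704 CPM over the group (3 counts of its total), and Tlr13 had none in 7 spleen conventional CD4 T cell libraries, which allows up to 0.112 CPM. Such limits cover counting error only.

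In regulatory T cells, 3 of the 5 members that passed the low-count filter were higher in tumor than in spleen, with 53.5% of 13345 genes called (25.9% higher, 27.6% lower). Myd88 was at 103, 123 and 169 CPM (lowest, median and highest) in tumor, against 72.8, 89.2 and 117 CPM in spleen. Its ranges overlapped, and its log2 fold change was 0.75 ± 0.12 (adjusted p = 1.80e-05, edgeR). Tlr2 was at 6.59, 13.2 and 25.1 CPM in tumor, against 1.63, 4.81 and 9.00 CPM in spleen, a log2 fold change of 1.75 ± 0.31 (adjusted p = 7.73e-05, edgeR). Tlr4 was at 1.46, 4.41 and 12.7 CPM in tumor, against 0, 2.81 and 4.19 CPM in spleen. The Tlr4 log2 fold change of 1.27 ± 0.45 (adjusted p = 0.0214, edgeR) lost its call without tumor replicate 2 at 12 months (adjusted p = 0.0677) or at 3 months (adjusted p = 0.0905). Tlr7 (-0.35, adjusted p = 0.254) and Ly96 (0.43, adjusted p = 0.352) did not pass. Macrophage markers in these libraries (9 of 9 detected) lay between 13.8 and 75.1 CPM in tumor, against 34.3 to 68.7 CPM in spleen, while monocyte markers (6 of 6 detected) lay between 1471 and 3130 CPM in tumor, against 44.6 to 207 CPM in spleen. Neutrophil markers lay between 69.1 and 237 CPM in tumor, against 1.30 to 6.79 CPM in spleen, nearly all of it Ltf in tumor, with S100a8 and Retnlg at 0 in the 3-month tumor group. Cd14 averaged 1.48 CPM in tumor and 0.357 CPM in spleen regulatory T cells. Whether these marker sums came from other cells in the sort, and their part in the Tlr2 and Tlr4 results, was not tested.

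CD8 T cells rose in Myd88 alone of the 5 members tested, against 42.1% of 13285 genes called (22.5% higher, 19.6% lower). Myd88 was at 91.1, 109 and 125 CPM in tumor, against 71.3, 82.2 and 97.3 CPM in spleen, a log2 fold change of 0.48 ± 0.10 (adjusted p = 0.000322, edgeR). Monocyte markers lay between 2120 and 5433 CPM in tumor CD8 T cells, against 686 to 1426 CPM in spleen ones, with F13a1 at 0 in tumor at 12 months. B cell markers lay between 146 and 237 CPM in tumor, against 607 to 930 CPM in spleen. Macrophage markers lay between 5.01 and 70.2 CPM in tumor CD8 T cells, against 7.98 to 17.0 CPM in spleen ones. Cd14 averaged 0.498 CPM in tumor and 0.0469 CPM in spleen. Whether these marker sums came from other cells in the sort, and their part in the Myd88 result, was not tested. Tlr2, at 3.25 ± 2.83 CPM in tumor and 6.97 ± 3.73 CPM in spleen (SD, n = 8 each), had a log2 fold change of -1.01 (adjusted p = 0.0882). That passed without tumor replicate 3 at 12 months (-1.36, adjusted p = 0.0252) or tumor replicate 2 at 3 months (-1.45, adjusted p = 0.0171). In conventional CD4 T cells 0 of the 6 members tested passed by edgeR or DESeq2, where 27.2% of 14661 genes were called (16.0% higher, 11.2% lower). Only Tlr3 had an unadjusted p under 0.05, with an adjusted p of 0.0808 by edgeR. In conventional CD4 T cells Tlr3 was at 3.45 ± 3.09 CPM in tumor (SD, n = 6) and 0.467 ± 0.599 CPM in spleen (SD, n = 7). Tlr3 passed the low-count filter within tumor alone and not within spleen alone. A gene kept through tumor leans towards being called higher there, so the tests of Tlr3 here are not evidence of a difference. Its fold depended on single libraries: it passed without tumor replicate 1 at 12 months (2.78, adjusted p = 0.0458), spleen replicate 1 at 3 months (3.97, adjusted p = 0.0444) or tumor replicate 3 at 3 months (3.01, adjusted p = 0.0418), and was -0.02 without tumor replicate 1 at 3 months. Myd88 in conventional CD4 T cells was 85.9 ± 11.5 CPM in tumor (SD, n = 6) and 89.3 ± 15.9 CPM in spleen (SD, n = 7), with a log2 fold change of 0.05 and a 95% interval of -0.26 to 0.35.

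**Figure D4:**
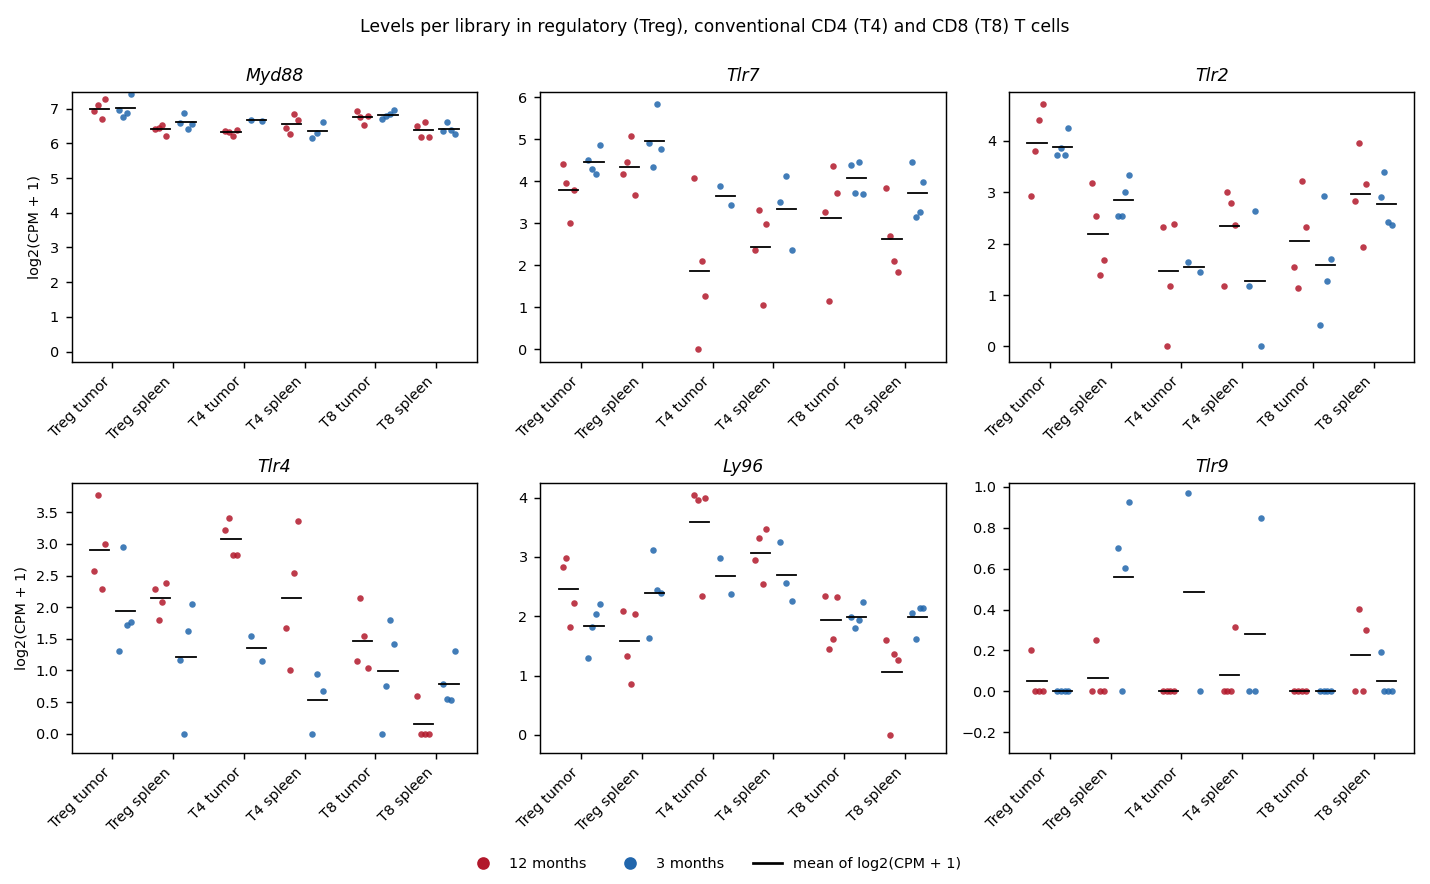
Levels of 6 genes in every library of the 3 T cell types, as log2(CPM + 1), with red for 12 and blue for 3 months and bars at the mean of each group. Myd88 alone of the 6 is at 70.8 CPM or more, in all 45 libraries, tumor regulatory T cells are the highest for Tlr2, and Tlr9 is at or near 0.

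Age changed none of the members past the threshold. Over 10 comparisons of 12 with 3 months, each within 1 cell type and tissue, 68 member tests were made, and 0 were called by edgeR or by DESeq2. An unadjusted p under 0.05 was found in 7 of the 68, and the smallest adjusted p was 0.270. Spleen dendritic cells held 3 of the 7, beside 1535 of 12650 among all genes. Tumor and spleen macrophages held 1 each, beside 663 of 11007 and 736 of 12131 genes. So did tumor conventional CD4 and spleen CD8 T cells, beside 682 of 12882 and 909 of 11677 genes. Comparisons that held none ranged from 158 of 12090 genes (tumor dendritic cells) to 2297 of 11726 (spleen conventional CD4 T cells). Few genes of any kind were called for age. The share of genes called was 0% in macrophages of either tissue, in tumor dendritic cells, tumor regulatory T cells and tumor CD8 T cells. It was 0.593% in spleen dendritic cells, 0.0489% in spleen regulatory T cells, 0.0311% and 3.92% in tumor and spleen conventional CD4 T cells and 1.02% in spleen CD8 T cells. Tests of whether the age effect differed between tumor and spleen also called 0 members in each of the 5 cell types by edgeR, with 0.668% of genes called in conventional CD4 T cells, 0.143% in CD8 T cells and 0% in the others. With 2 to 4 libraries a group, intervals were wide, so these tests do not show that levels were equal.

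The 7 member tests with an unadjusted p under 0.05 are given as values. Tlr4 in spleen dendritic cells was at 12.96, 19.3 and 9.57 CPM at 12 months (replicates 1, 3 and 4) and at 3.52, 1.71 and 9.58 CPM at 3 months. The groups overlapped only at about 9.6 CPM, and the log2 fold change of 1.499 ± 0.54 (adjusted p = 0.270, edgeR) passed without the 3-month replicate 4, whose age labels conflict (2.43, adjusted p = 0.0208). Myd88 in tumor macrophages was at 237, 245, 224 and 272 CPM at 12 months and at 311, 306, 323 and 333 CPM at 3 months. These groups did not overlap, yet the log2 fold change of -0.43 ± 0.13 had an adjusted p of 0.771. In spleen macrophages Myd88 overlapped between ages, at 336, 247, 354 and 292 CPM at 12 months and 250, 286, 309 and 318 CPM at 3 months, and the difference of the age effects between tissues was -0.57 (adjusted p = 0.945). Tlr7 was at 139, 136, 119 and 94.9 CPM in spleen macrophages at 12 months and at 163, 146, 182 and 215 CPM at 3 months, again without overlap (log2 fold change -0.47 ± 0.18, adjusted p = 0.761). Over the 10 comparisons the log2 fold change of Tlr7 ran from -1.17 (tumor conventional CD4 T cells) to 0.17 (tumor macrophages), none of them called. Nothing in the labels says that these comparisons came from separate mice. The other 4 were Tlr13 (-0.46) and Tlr9 (0.55) in spleen dendritic cells, Tlr4 in tumor conventional CD4 T cells (2.20, from 2 libraries at 3 months) and Tlr7 in spleen CD8 T cells (-1.06).

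**Figure D5:**
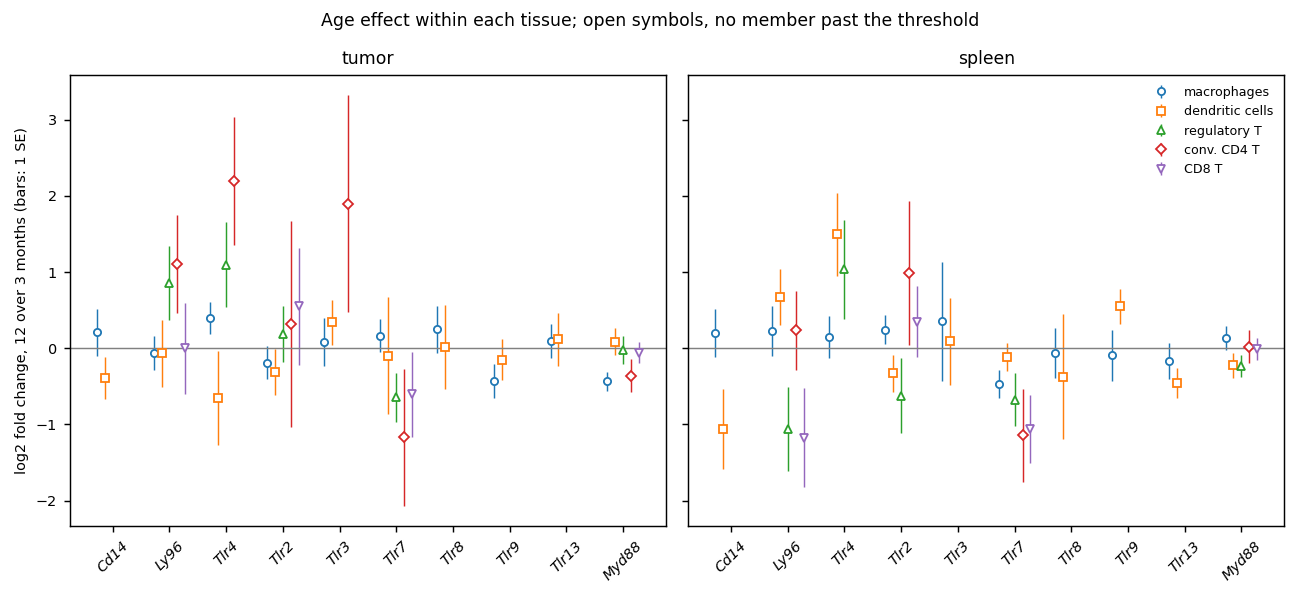
Log2 fold change of 12 over 3 months for each gene within each cell type (symbols), in tumor (left) and spleen (right), with bars of 1 SE, for the 68 tests that passed the low-count filter. All symbols are open because none passed the threshold, and the widest bars belong to genes with few counts in T cells.

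Across the 20 groups, each gene's levels fell in a ladder whose neighbouring steps mostly overlapped. Cd14 was highest in tumor dendritic cells at 3 months (1339 ± 330 CPM, SD, n = 4) and tumor macrophages at 12 months (1137 ± 306 CPM, SD, n = 4), whose ranges overlapped. Tlr2 led in tumor macrophages at 3 and 12 months (507 ± 141 and 464 ± 93 CPM, SD, n = 4 each), and the next group, spleen macrophages at 12 months (186 ± 45 CPM, SD, n = 4), did not overlap with them. Tlr4 and Tlr8 were also highest in tumor macrophages, at 147 ± 17 and 95.3 ± 8.8 CPM at 12 months (SD, n = 4 each). Spleen macrophages at 3 months led for Tlr7 (176 ± 30 CPM, SD, n = 4), above all libraries of the next group, and for Tlr13 (382 ± 67 CPM, SD, n = 4), where the next group overlapped. Tlr3 led in tumor dendritic cells at 12 months (67.1 ± 25.3 CPM, SD, n = 3) and Tlr9 in spleen dendritic cells at 12 months (52.2 ± 12.7 CPM, SD, n = 3), each overlapping with the next group. Myd88 was highest in tumor macrophages at 3 months (318 ± 13 CPM, SD, n = 4) and Ly96 in spleen macrophages at 12 months (17.6 ± 5.4 CPM, SD, n = 4).

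Levels of different genes can be set side by side only per length, and exon lengths were taken from GENCODE M21, which may differ from the annotation used for counting. In tumor dendritic cells Cd14 had 695 ± 208 CPM per kb, Tlr4 9.61 ± 5.80 and Ly96 10.8 ± 4.5 CPM per kb (SD, n = 7). In spleen dendritic cells the same 3 genes had 4.28 ± 2.81, 1.70 ± 1.15 and 12.3 ± 3.8 CPM per kb (SD, n = 6). On this scale Cd14 exceeded its receptor partners in every tumor library and lay below Ly96 on average in spleen dendritic cells. Among the endosomal receptors of tumor macrophages, Tlr13 led with 77.5 ± 17.9 CPM per kb, before Tlr8 with 24.2 ± 7.9, Tlr7 with 21.5 ± 5.1, Tlr9 with 10.0 ± 2.5 and Tlr3 with 8.06 ± 3.39 CPM per kb (SD, n = 8 each). In spleen dendritic cells Tlr7 (22.2 ± 3.5 CPM per kb) and Tlr13 (18.7 ± 4.9) came first, then Tlr9 (12.7 ± 3.5), Tlr3 (8.0 ± 3.7) and Tlr8 (0.920 ± 0.575 CPM per kb; SD, n = 6 each).

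The genes whose group means were most like each member are given as a description, by Pearson's correlation of mean log2(CPM + 1) over the 20 groups among 10814 genes, points that share libraries, depth and cell types. Tlr13 was most like Tifab (0.996), Tlr8 like Hk3 (0.994), Cd14 like Clec4n (0.991) and Tlr9 like Cd180 (0.991). Myd88 was most like Tnfrsf1a (0.976), Tlr3 like Tnfrsf11a (0.971), Tlr2 like Ly6i (0.966) and Tlr4 like Pdlim7 (0.956). The weakest best matches were those of Tlr7 with Scarb1 (0.932) and Ly96 with Tmem176b (0.909). Within the members, Tlr2 and Tlr8 were the closest pair (0.963).

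Other genes of the pathway, 72 in 6 lists, also differed between tissues. In tumor macrophages 31 of the 69 tested were higher and 13 lower than in spleen, and in tumor dendritic cells 33 of 68 were higher and 10 lower. Over all genes 23.9% were higher and 27.8% lower in tumor macrophages, and 24.4% higher and 22.7% lower in tumor dendritic cells. The median log2 fold change was 0.28 in macrophages and 0.41 in dendritic cells, beside -0.06 and -0.04 over all genes. The list of inducible outputs, cytokines and enzymes that Toll-like receptors can switch on, had 16 genes, of which 14 passed the low-count filter in each type. In tumor dendritic cells 14 of 14 were higher (median log2 fold change 4.26), and in tumor macrophages 8 of 14 (median 1.25). Within spleen alone, 8 of the list passed the filter in dendritic cells and 9 in macrophages, against 14 and 12 within tumor alone. A gene that passed only through tumor was nearly bound to be called higher, so these counts and medians are not evidence about the list. The totals over the 72 genes include it. Il1b, an inflammatory cytokine, was at 3748 ± 1100 CPM in tumor dendritic cells (SD, n = 7) and 134 ± 47 CPM in spleen ones (SD, n = 6), with a log2 fold change of 5.14 ± 0.26 (adjusted p = 1.03e-08, edgeR). In macrophages Il1b was at 1586 ± 374 CPM in tumor and 1894 ± 750 CPM in spleen (SD, n = 8 each) and did not pass (adjusted p = 0.989). Neutrophil markers lay between 5292 and 40380 CPM in spleen macrophage libraries, against 171 to 1067 CPM in tumor ones. The part of neutrophils in the Il1b result was not tested. Cxcl10, a chemokine induced by interferon, rose in both, with log2 fold changes of 5.13 in macrophages and 4.72 in dendritic cells. Nos2, the inducible nitric oxide synthase, was at 87.4 ± 87.3 CPM in tumor macrophages and 0.483 ± 0.536 CPM in spleen ones (SD, n = 8 each). With so little in spleen, Nos2 falls under the limit given above for genes that passed through tumor. Its levels are given as a description, without a test.

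Genes that equip endosomal receptors also rose, 8 of 9 tested in tumor macrophages and 6 of 8 in tumor dendritic cells, with 0 lower in either, beside 23.9% and 24.4% of all genes higher. Lgmn, legumain, a protease that cleaves endosomal receptors, was at 3522 ± 485 CPM in tumor macrophages and 241 ± 49 CPM in spleen ones (SD, n = 8 each), a log2 fold change of 4.09 ± 0.14 (adjusted p = 1.20e-13, edgeR). Ctss, cathepsin S, rose by a log2 fold change of 2.22 in macrophages and 2.49 in dendritic cells. Unc93b1, the chaperone of the endosomal receptors, did not pass in dendritic cells (634 ± 96 CPM in tumor, n = 7, and 708 ± 67 CPM in spleen, n = 6, SD; adjusted p = 0.180). It was higher in macrophages than in dendritic cells in both tissues, by 1.497 in tumor and 0.85 in spleen on the log2 scale.

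Among 9 other Toll-like receptors and relatives, 4 rose and 1 fell in tumor macrophages, and 1 rose and 2 fell of 8 tested in tumor dendritic cells, beside 51.7% and 47.1% of all genes called in either direction. Tlr12, a receptor of protozoan profilin in mice, was at 30.5 ± 14.1 CPM in tumor macrophages and 2.61 ± 1.16 CPM in spleen ones (SD, n = 8 each), a log2 fold change of 3.73 ± 0.38 (adjusted p = 1.27e-07, edgeR). Tlr1, which pairs with Tlr2, rose in macrophages (1.28 ± 0.12, adjusted p = 2.12e-08, edgeR). In dendritic cells Tlr1 had a value of -0.64 (adjusted p = 0.0563) on the log2 scale. Tlr6, the other partner of Tlr2, did not pass in macrophages (-0.21, adjusted p = 0.250). Tlr11, the second profilin receptor, fell in tumor dendritic cells to 8.64 ± 3.59 CPM (SD, n = 7), against 44.2 ± 29.3 CPM in spleen (SD, n = 6; adjusted p = 0.000754, edgeR), and so did Cd180, with a log2 fold change of -1.06.

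Of 17 adaptors and kinases 5 rose and 4 fell in tumor macrophages and 5 rose and 3 fell in tumor dendritic cells. Of 10 transcription factors 4 rose and 5 fell in macrophages and 3 rose and 3 fell in dendritic cells. The counts of adaptors and kinases called, 9 of 17 and 8 of 17, were near the shares of all genes called (51.7% in macrophages and 47.1% in dendritic cells). Irf7, which drives interferon genes downstream of Tlr7 and Tlr9, rose in both types, at 1258 ± 257 CPM in tumor and 236 ± 85 CPM in spleen macrophages (SD, n = 8 each; log2 fold change 2.63) and by 2.92 in dendritic cells. Nfkb1, a subunit of NF-kB, fell in tumor macrophages (-1.28 ± 0.10, adjusted p = 5.26e-09, edgeR). Among negative regulators 2 rose and 3 fell of 10 tested in tumor macrophages, and 4 rose and 2 fell of 11 in tumor dendritic cells. Socs1, an inhibitor of cytokine signalling, rose in both (3.44 in macrophages and 3.34 in dendritic cells on the log2 scale), while Irak3, an inhibitor of the kinases bound to Myd88, fell in tumor macrophages (-0.69, adjusted p = 0.000133, edgeR).

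Several of these lists also moved in T cells. Inducible outputs rose in 6 of 7 tested in regulatory, 5 of 6 in conventional CD4 and 5 of 5 in CD8 T cells of tumor, from a list of 16. Within spleen alone, 4, 5 and 3 of the list passed the low-count filter, against 7, 6 and 5 within tumor alone. A gene that passed only through tumor was nearly bound to be called higher, so these counts are not evidence about the list. Transcription factors rose in 6, 8 and 8 of 10 tested in regulatory, conventional CD4 and CD8 T cells, and fell in 2, 1 and 1. Over all genes 25.9% were higher in tumor in regulatory, 16.0% in conventional CD4 and 22.5% in CD8 T cells. Pik3ap1, an adaptor linking Toll-like receptors to PI3 kinase, rose in all 3, with log2 fold changes of 5.06 in regulatory, 4.98 in conventional CD4 and 3.52 in CD8 T cells. Tlr1 fell in tumor CD8 T cells to 12.3 ± 6.4 CPM, against 63.5 ± 6.0 CPM in spleen (SD, n = 8 each; log2 fold change -2.28, adjusted p = 2.08e-08, edgeR) and in tumor regulatory T cells (-0.41, adjusted p = 0.00118, edgeR). Tlr12 fell in all 3 T cell types of tumor, by log2 fold changes of -4.78 in regulatory, -2.59 in conventional CD4 and -1.64 in CD8 T cells, where its spleen levels averaged 6.89, 4.61 and 20.2 CPM. Of the 9 genes in its list, 4, 5 and 5 passed the low-count filter within spleen alone in these types, against 2, 4 and 3 within tumor alone. A gene that passed only through spleen was nearly bound to be called lower in tumor. The falls of Tlr12 are therefore given as values and not as evidence. For age, 3 of 53 pathway genes were higher at 12 than at 3 months in conventional CD4 T cells of the spleen, and 1 of 50 in spleen CD8 T cells, near the 3.92% and 1.02% of all genes called there. The other 8 age comparisons called 0 of these genes by edgeR.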

How the data were processed

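Per the submitters' processing notes, the authors aligned reads to mm10 with STAR 2.5.3 and counted them with featureCounts. The deposited table holds raw counts per gene symbol and library, and the sources used here do not name its annotation, whether strand was used or how multi-mapping was handled, so that reads shared with overlapping genes cannot be told apart. No row without a gene name entered library totals. The 10 members, all lists of genes and the tests were chosen with earlier results of these data known. Libraries were grouped by the cell type, tissue and age of their titles. CPM was computed from each library's total (1652812 to 9115858 counts), and reads without molecular identifiers make counting limits lower bounds on error. Genes passing filterByExpr were scaled by TMM and fitted by robust quasi-likelihood in edgeR 4.0.16 (limma 3.58.1, R 4.3.3), with sex as a covariate wherever dendritic cells entered, two-sided tests, Benjamini-Hochberg adjustment across every gene tested and a threshold of 0.05. Scripts were tested on simulated data. Tumor was set against spleen over both ages, 12 against 3 months within a tissue, and macrophages against dendritic cells within and between tissues. Intervals are the log2 fold change ± 1.96 SE, with the SE taken from the test statistic. They are approximate and can be narrower than the test allows. For Tlr3 in tumor macrophages against dendritic cells the interval was -1.05 to -0.0353, while the unadjusted p was 0.0531 (edgeR). Per list and comparison, pathway genes could be named if among the 3 smallest adjusted p past the threshold or the 2 most abundant not past it, and the text gives a selection. Siglech, Ltf, S100a8 and Retnlg are markers named after their values were seen. Exon lengths and coordinates are from GENCODE M21 (GRCm38) and promoters from RefSeq (GRCm38.p6).

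Alternatives were scaling by DESeq2 size factors, all genes kept regardless of low counts, the DESeq2 1.42.0 Wald test, the replicate number as a block, all 4 groups of a type in 1 fit for age, no sex covariate, conflicting age labels left out or regrouped, tumor dendritic cells without the libraries numbered 2, and each library left out in turn. Chosen after seeing the data were fits without 3 spleen macrophage libraries with over 15000 CPM of neutrophil markers and contrasts of the 12-month or 3-month groups alone. Where a fit leaves a group with 1 library, it is assumed to vary like the others. No label says that libraries of one number share a mouse. Residuals of same-numbered libraries correlated over 0.1 in all 4 pairs only for tumor regulatory T cells across ages (0.103 to 0.308), and the block left 0 members called there. No 2 libraries of a group held identical counts (103 pairs).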

Additional observations from a re-analysis of the deposited data

Results flagged for a closer look

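In 4 of 102 sets tested for a stray value, each 1 gene in 1 group of 4 libraries, 1 library lay far from the other 3, where chance gives about 1 in 20. Tlr8 was at 53.9 CPM in replicate 2 of tumor dendritic cells at 3 months, against 16.2 to 21.1 CPM in the others. That library also had 17220 CPM of macrophage markers, against 5237 to 6861 CPM, and the part of macrophages in this value was not tested. Tlr3 was at 67.7 CPM in replicate 2 of tumor macrophages at 3 months, against 26.9 to 33.6 CPM in the others. Tlr9 was at 22.9 CPM in replicate 1 of tumor macrophages at 12 months, against 31.8 to 33.5 CPM. Ly96 was at 4.06 CPM in replicate 3 of tumor conventional CD4 T cells at 12 months, against 14.5 to 15.5 CPM.

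For 8 genes the log2 difference of macrophages and dendritic cells differed between tumor and spleen by edgeR's interaction test. It was lower in tumor for Cd14 (-5.18), Tlr8 (-2.68), Tlr4 (-1.63), Tlr2 (-1.07), Tlr13 (-1.003) and Myd88 (-0.87), and higher in tumor for Tlr3 (2.61) and Tlr9 (2.14).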

How the results depend on the processing

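Counts of members past the threshold are compared here with the reported ones. They moved by more than 1.5 times for tumor against spleen dendritic cells with the 3-month groups only, where 5 were called in place of 9, and for macrophages against dendritic cells in tumor without the low-count filter, where 4 were called in place of 7. Leaving out each library in turn gave 0 to 1 for age in spleen dendritic cells, 0 to 1 for conventional CD4 T cells and 1 to 3 for CD8 T cells of tumor against spleen. The fold of Myd88 in macrophages changed sign with the 12-month groups only (-0.17), and that of Tlr3 in conventional CD4 T cells ran from -0.0225 to 3.97 with 1 library left out, the lowest without tumor replicate 1 at 3 months. With the replicate block, 2 members were called in regulatory T cells of tumor against spleen, where Tlr4 had an adjusted p of 0.0535, and 8 for macrophages against dendritic cells in tumor, where Tlr3 had 0.0322. Numbers alone do not pair these libraries, and the block changed no other count of members. The cause of these changes was not tested. No scaling alternative turned the direction of a called member.

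Over all genes, calls for age depended on the tool: in spleen dendritic cells 75 genes were called, 303 by DESeq2, 425 without the filter, 153 with the block, 47 without the sex covariate, 342 without the conflicting age labels, 0 when grouped by age tag and 0 with 4 groups in 1 fit. In spleen conventional CD4 T cells 460 were called, 881 by DESeq2, 839 without the filter and 88 to 2400 with 1 library left out. In spleen CD8 T cells 119 were called, 192 by DESeq2 and without the filter and 75 with 4 groups in 1 fit. Age in tumor gave at most 4 calls per type by edgeR, and 3, 2, 7, 40 and 12 by DESeq2 in macrophages, dendritic cells, regulatory, conventional CD4 and CD8 T cells. Without the conflicting labels, dendritic cells of tumor against spleen had 4375 calls in place of 6583, and macrophages against dendritic cells in spleen 3426 in place of 7545. Depth limits Tlr8, Tlr9, Tlr13 and Cd14 in T cells, where most libraries held no count.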
